A study of Mus musculus with 5 samples.

Results

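A set of 10 genes of replication licensing was followed in RNA sequencing libraries from the neonatal mouse retina. They were taken by symbol from the deposited table of 24594 genes, and all 10 were found in it. They are Mcm2, Mcm3, Mcm4, Mcm5, Mcm6 and Mcm7, which encode the subunits of the replicative helicase, Mcm10, the loading factors Cdc6 and Cdt1, and geminin (Gmnn). The 3 libraries labelled Zfp292-OE came from pups given a plasmid that expresses Zfp292, a zinc finger protein, from the CAG promoter. The 2 control libraries came from pups given green fluorescent protein (GFP) from the same promoter, with no added Zfp292. Plasmids were electroporated into living pups at postnatal day 0, and retinas were taken 4 days later. Cells carrying GFP, named RPC in the labels, were sorted from dissociated retinas of both groups. How cells given CAG-Zfp292 came to carry GFP is not stated. The CAG promoter is active in most cell types, so the sorted cells need not be of 1 type. The labels do not give the strain or sex of the pups, or whether a library came from 1 animal or a pool.

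Licensing prepares origins of replication for a single use in each cell cycle. The origin recognition complex binds DNA, Cdc6 and Cdt1 join it, and together they load rings of MCM2-7 as an inactive helicase in G1. In S phase Cdc45 and the GINS proteins turn the ring into the active helicase with the help of Mcm10, while geminin binds Cdt1 and blocks further loading until mitosis is over. In many cell types transcription of these genes is driven by E2F factors late in G1, so dividing progenitors carry their transcripts and postmitotic neurons largely do not. In bulk RNA a larger share of dividing cells and more RNA per cell cannot be told apart.

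Sequences around the starts of the genes were searched, and some upstream stretches are shown. RefSeq's table for GRCm38.p6 held a window from 250 bases before to 50 bases after an annotated start for 8 of the 10 genes, in 9 windows. Each was searched on both strands for the E2F words TTTGGCGC, TTTGCCGC, TTTCGCGC and TTTCCCGC. A word was found in 6 of the 9 windows, those of Mcm3, Mcm5, Mcm6, Cdc6 and Cdt1 and 1 of Mcm7, and in 2.26% of all 32851 windows of that length. In the 250 bases before the start alone, 4 of the 9 and 1.86% of all windows held one, since the words of Mcm3 and Cdt1 lie after the start. In Mcm6 and in Mcm5 a pair of words overlapped by 4 bases in a run of 12, TTTGGCGCGAAA in Mcm6 and its reverse complement TTTCGCGCCAAA in Mcm5, and Mcm6 held a further TTTGGCGC. The CCAAT box (CCAAT) was found in 7 of the 9 windows and 37.4% of all windows, the GC box (GGGCGG) in 7 of 9 and 35.7%, and the CHR word (TTTGAA) in 1 of 9 and 17.9%. In Mcm7 an E2F word and a CCAAT box shared 1 base. The stretches below lie before the outermost annotated start of Mcm6, Mcm5 and Mcm2, the last as a gene whose window held none of the 4 E2F words. Capitals mark E2F words.
Mcm6, chr1:128359706-128359955, minus strand: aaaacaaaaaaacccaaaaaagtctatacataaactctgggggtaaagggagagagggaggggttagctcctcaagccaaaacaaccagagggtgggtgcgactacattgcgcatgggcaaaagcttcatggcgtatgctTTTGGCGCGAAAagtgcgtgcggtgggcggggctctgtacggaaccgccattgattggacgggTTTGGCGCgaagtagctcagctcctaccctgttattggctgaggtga
Mcm5, chr8:75109259-75109467, plus strand: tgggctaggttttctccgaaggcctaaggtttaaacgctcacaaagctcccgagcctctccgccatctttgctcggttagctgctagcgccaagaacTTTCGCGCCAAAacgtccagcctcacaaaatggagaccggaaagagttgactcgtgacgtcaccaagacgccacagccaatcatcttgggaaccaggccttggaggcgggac
Mcm2, chr6:88898781-88899030, minus strand: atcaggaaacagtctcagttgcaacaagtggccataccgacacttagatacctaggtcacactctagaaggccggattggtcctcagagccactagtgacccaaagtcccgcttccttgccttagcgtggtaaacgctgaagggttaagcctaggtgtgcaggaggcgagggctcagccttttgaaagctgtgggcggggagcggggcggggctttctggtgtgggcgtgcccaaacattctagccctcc
A match of letters is a description of the DNA and not a measured site of binding. The part of these words in the differences between the groups was not tested.

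All 10 genes were higher in each library labelled Zfp292-OE than in either control library. Cdc6 and Gmnn differed most, at 7.64-fold and 5.90-fold, and Mcm7 least, at 1.97-fold. The other 7 lay between 2.88-fold and 5.16-fold. With limma, which tested 16316 genes on log2(value + 1), all 10 passed an adjusted p of 0.05 after Benjamini-Hochberg adjustment. Of all tested genes, 10% were called higher and 7.38% lower. For each of the 10 the lowest library labelled Zfp292-OE exceeded the higher control, which held for 24.3% of tested genes. At least 4-fold higher, and called, were 5 of the 10 genes and 1.48% of tested genes. edgeR, at an adjusted p of 0.05, also called 10 of the 10 higher and 8.28% of tested genes, and DESeq2 10 of the 10 and 14.3%. The median log2 fold change, libraries labelled Zfp292-OE minus control, was 2.0 for the 10 genes and −0.06 for all tested genes. All 10 calls needed both controls. Without control library 1 limma called 0 of the 10, with adjusted p between 0.054 and 0.093, and without control library 2 again 0, between 0.11 and 0.14, although the unadjusted p stayed below 0.05 for 10 of 10 in both fits. Reads counted under Zfp292 itself were 14631, 13197 and 15534 in the libraries labelled Zfp292-OE and 13288 and 14756 in the control libraries (normalised read counts). Their log2 fold change was 0.04 (SE 0.14, fold change 1.03 with a 95% interval of 0.823 to 1.29, limma adjusted p = 0.87), so each direction below is that of the labels.

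**Figure D1:**
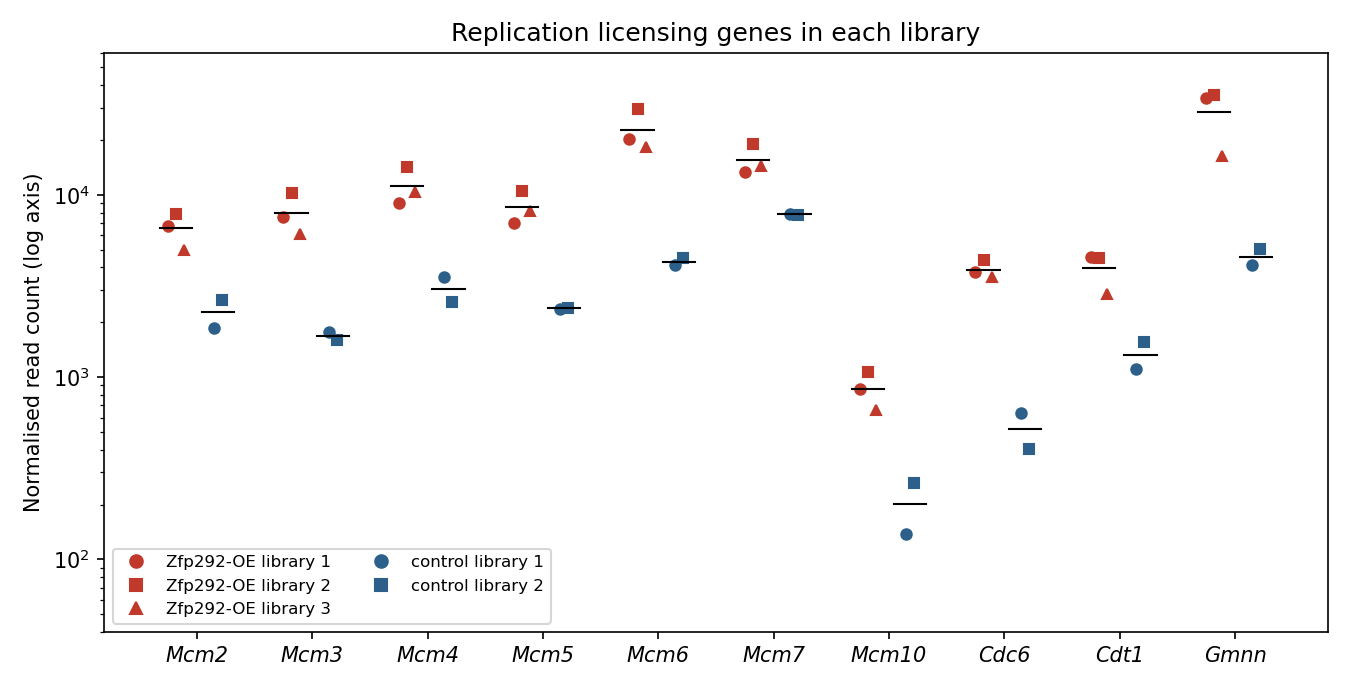
Normalised read count (log axis) of the 10 licensing genes in each library, with Zfp292-OE in red and control in blue for each gene and black bars at group means. For every gene each red point lies above both blue points, from Cdc6 at 7.64-fold to Mcm7 at 1.97-fold.

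All 6 helicase subunits rose, by 1.97-fold to 5.16-fold. Mcm6 (chromosome 1, GRCm38, gene span 128331590 to 128359664, 17 exons) stood at 20247, 29561 and 18238 normalised read counts in libraries 1, 2 and 3 labelled Zfp292-OE, against 4108 and 4493 in control libraries 1 and 2. Its log2 fold change was 2.37 (SE 0.20, limma adjusted p = 0.00030), the largest of the 6 subunits. Mcm3 (chromosome 1, 20802968 to 20820312) had 7579, 10247 and 6118, against 1768 and 1598 in controls, a log2 fold change of 2.21. Library 2 labelled Zfp292-OE was the highest for both genes, and neither gene overlapped between the groups.

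Mcm4 (chromosome 16, 15623897 to 15637400) had 9002, 14257 and 10302 in the libraries labelled Zfp292-OE, against 3537 and 2589 in control libraries 1 and 2, with a log2 fold change of 1.86 (SE 0.22). Mcm5 (chromosome 8, 75109569 to 75128439) had 6993, 10463 and 8110, against 2357 and 2406 in controls. The 2 control values of Mcm5 nearly coincided, and its log2 fold change was 1.82 (SE 0.20). Mcm2 (chromosome 6, 88883474 to 88898780) had 6780, 7883 and 4959, against 1865 and 2660 in controls. Mcm2 rose by 1.53 on the log2 scale (SE 0.24, limma adjusted p = 0.0030), and its controls differed from each other more than those of Mcm5.

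Mcm7 (chromosome 5, 138164583 to 138172422) showed the smallest difference of the 10. Its normalised read counts were 13362, 18978 and 14310 in the libraries labelled Zfp292-OE, against 7877 and 7734 in the control libraries. The log2 fold change was 0.98 (95% interval 0.59 to 1.37, limma adjusted p = 0.0057). The exons of Mcm7 overlap those of other genes on the opposite strand in the GENCODE M21 annotation, Ap4m1 by 321 bases and Cops6 by 64. Whether counting used strand is not given in the sources used here. Ap4m1, a subunit of an adaptor complex of vesicle transport, had 952, 1156 and 1433 in the libraries labelled Zfp292-OE and 1262 and 1341 in controls. Cops6, a subunit of the COP9 signalosome, had 100226, 99109 and 90746, against 80552 and 73077 in controls (log2 fold change 0.33, limma adjusted p = 0.12). A near-identical copy, Gm5487, matches the Mcm7 transcript at 97.7% over 2157 bases and was not analysed here. For both reasons the level of Mcm7 is uncertain, and the part of these neighbours in its value was not tested. The 3 microRNA genes inside Mcm7, Mir25, Mir93 and Mir106b, were listed at 0 in all 5 libraries. Mir25 and Mir93 share 84 and 88 exon bases with Mcm7 on the same strand, and how shared reads were counted is not given. The libraries measured messenger RNA, so these values do not show that the microRNAs were absent.

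The annotated start of Mcm4 lies 466 bases from that of Prkdc, the catalytic subunit of a DNA repair kinase, on the opposite strand. Prkdc had 1971, 1442 and 1609 in the libraries labelled Zfp292-OE, against 1383 and 1353 in controls. Its log2 fold change of 0.28 (95% interval −0.26 to 0.82) did not pass (limma adjusted p = 0.46), and this interval does not meet that of Mcm4, 1.36 to 2.36.

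Within the helicase the shares of Mcm3, Mcm6 and Mcm7 did not overlap between the groups, with Mcm7 lower and Mcm3 and Mcm6 higher in the libraries labelled Zfp292-OE. Levels were divided by the length of the annotated principal transcript, and each subunit was taken as a share of the summed MCM2-7 level of its own library, a quantity that does not depend on how libraries were scaled. Mcm7 held 21.9%, 21.8% and 24.3% of the sum in libraries 1, 2 and 3 labelled Zfp292-OE, against 38.6% and 37.8% in the control libraries. Mcm6 held 33.8%, 34.6% and 31.6%, against 20.5% and 22.4% in controls. Thus Mcm6 was the most abundant subunit per length in all 3 libraries labelled Zfp292-OE and Mcm7 in both controls. The level of Mcm7 is uncertain, as said above, and with it this order and every share of the sum. The part of reads from overlapping genes or the copy in these shares was not tested. Mcm3 had shares of 12.2%, 11.5% and 10.2%, against 8.46% and 7.64% in controls, again without overlap. The shares of Mcm2, Mcm4 and Mcm5 overlapped between the groups. An exact two-sided permutation test over 5 libraries gave p = 0.20 for each of Mcm3, Mcm6 and Mcm7, the smallest value that the 5 libraries allow. With Mcm7 left out of the sum, an alternative added after the data were seen, Mcm6 still did not overlap (43.4%, 44.3% and 41.7%, against 33.4% and 36.0% in controls), while Mcm3 did (15.6%, 14.7% and 13.4%, against 13.8% and 12.3% in controls). In that sum the shares of Mcm2 (12.5%, 10.2% and 9.79%, against 13.1% and 18.4% in controls) and of Mcm5 (12.9%, 13.5% and 16%, against 16.5% and 16.6% in controls) were lower in the libraries labelled Zfp292-OE.

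**Figure D2:**
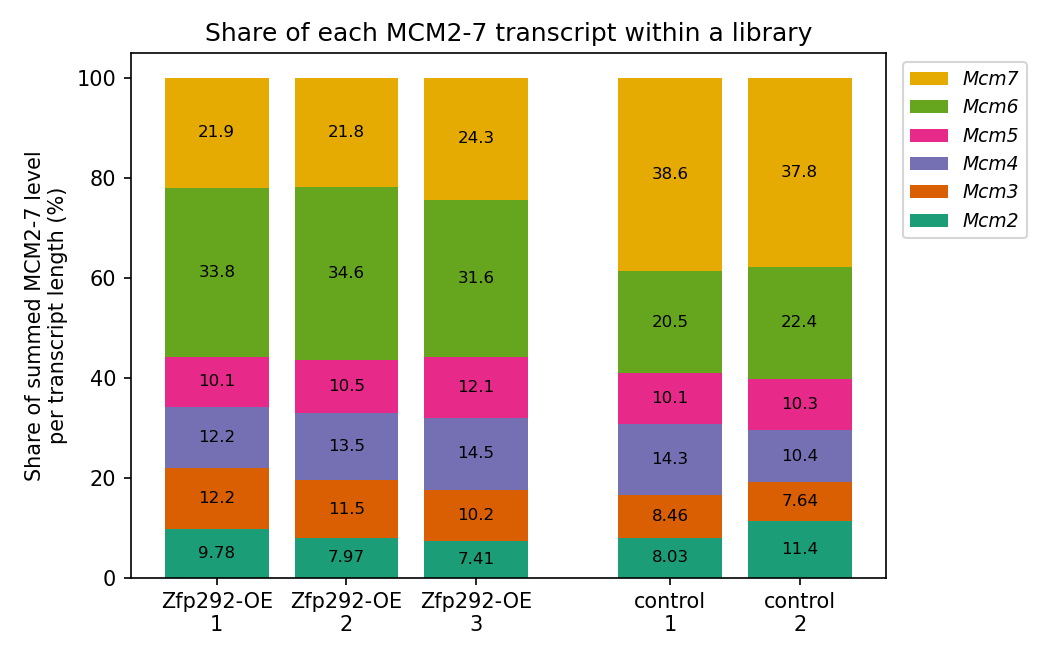
Share (%) of each MCM2-7 transcript in the summed level per transcript length of its library, with the 3 libraries labelled Zfp292-OE on the left and the 2 controls on the right. Mcm6 takes 31.6% to 34.6% of the sum in the libraries labelled Zfp292-OE and 20.5% to 22.4% in controls, and Mcm7 takes 21.8% to 24.3% in the libraries labelled Zfp292-OE and 37.8% to 38.6% in controls. The level of Mcm7, which enters every share, is uncertain.

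Mcm10 (chromosome 2, 4989714 to 5012791), which joins the helicase at activation, had the lowest level per kilobase of transcript of the 10. Its normalised read counts were 858, 1070 and 658 in the libraries labelled Zfp292-OE, against 138 and 263 in control libraries 1 and 2. These rest on 752, 1139 and 629 reads in the libraries labelled Zfp292-OE, against 127 and 341 in controls. Its log2 fold change of 2.14 had the widest error of the 10 (SE 0.42, 95% interval 1.2 to 3.09, limma adjusted p = 0.0087).

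The loading factors Cdc6 and Cdt1 both rose, and relative to the control mean Cdc6 stood above Cdt1 in each of the 3 libraries labelled Zfp292-OE. Cdc6 (chromosome 11, 98907801 to 98923940), the ATPase that joins the origin recognition complex, had 3751, 4368 and 3540 in the libraries labelled Zfp292-OE, against 634 and 404 in the controls. Its log2 fold change of 2.93 (SE 0.26, limma adjusted p = 0.00032) was the largest of the 10 and higher than that of 98.9% of tested genes. An annotated copy, Gm9430, matches the Cdc6 transcript at 95.2% over 1528 bases and was not analysed here, so reads of Cdc6 could be split with it. Cdt1 (chromosome 8, 122568015 to 122573554), the partner that brings in MCM2-7, had 4545, 4493 and 2859, against 1104 and 1554 in controls. The change of Cdt1 was 1.57 (SE 0.27, 95% interval 0.97 to 2.16, limma adjusted p = 0.0044).

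Geminin, the inhibitor of Cdt1, had the highest level of the 10 per kilobase of transcript. Gmnn (chromosome 13, 24751845 to 24761923) had 33827, 35200 and 16363 in the libraries labelled Zfp292-OE, against 4107 and 5063 in the controls. Library 3 was well below libraries 1 and 2, which were close to each other, and it still exceeded both controls. The log2 fold change of Gmnn was 2.56 (SE 0.29, limma adjusted p = 0.00069). Per kilobase of transcript Gmnn averaged 25256 in the libraries labelled Zfp292-OE and 4068 in controls. The same measure for Cdt1 was 1812 in the libraries labelled Zfp292-OE and 607 in controls.

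Per kilobase of transcript the order of the 10 mean levels in the libraries labelled Zfp292-OE was Gmnn, Mcm6 (7795), Mcm7 (5250), Mcm4 (3117), Mcm3 (2633), Mcm5 (2521), Mcm2 (1940), Cdt1 (1812), Cdc6 (1519) and Mcm10 (177). In controls it was Gmnn, Mcm7 (2635), Mcm6 (1478), Mcm4 (853), Mcm5 (704), Mcm2 (671), Cdt1 (607), Mcm3 (555), Cdc6 (203) and Mcm10 (41.2). Gmnn stayed first and Cdc6 and Mcm10 last in both groups. Compared within each library, Mcm3 and Mcm5, Mcm2 and Cdt1, and Cdt1 and Cdc6 changed places in 1 of the 3 libraries labelled Zfp292-OE, and Mcm5 and Mcm2, and Cdt1 and Mcm3, in 1 of the 2 controls. The other neighbours kept their order in every library of their group. The place of Mcm7 rests on a level that is uncertain, as said above.

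Ratios within a library show how the inhibitor and the loading factors stood to each other. The log2 ratio of Gmnn to Cdt1 was 2.90, 2.97 and 2.52 in the libraries labelled Zfp292-OE, against 1.89 and 1.70 in controls, a difference of 1.0 (means 2.79 ± 0.24, SD, n = 3, and 1.80 ± 0.14, SD, n = 2, exact permutation p = 0.20). The ratio of Cdt1 to Cdc6 was 0.28, 0.04 and −0.31, against 0.80 and 1.94 in controls, a difference of −1.37. This difference was −0.80 without control library 2 and −1.94 without control library 1. Mcm10 to Mcm2 stood at −2.98, −2.88 and −2.91, against −3.74 and −3.34 in controls, a difference of 0.62. These 3 ratios did not overlap between the groups. Gmnn to Cdc6 did overlap, at 3.17, 3.01 and 2.21, against 2.69 and 3.65 in controls (difference −0.37, exact permutation p = 0.60). Of 5 ratios computed, 4 reached the smallest two-sided p that the 5 libraries allow, 0.20, or 0.25 after Benjamini-Hochberg adjustment over the 5, so this design cannot pass 0.05.

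**Figure D3:**
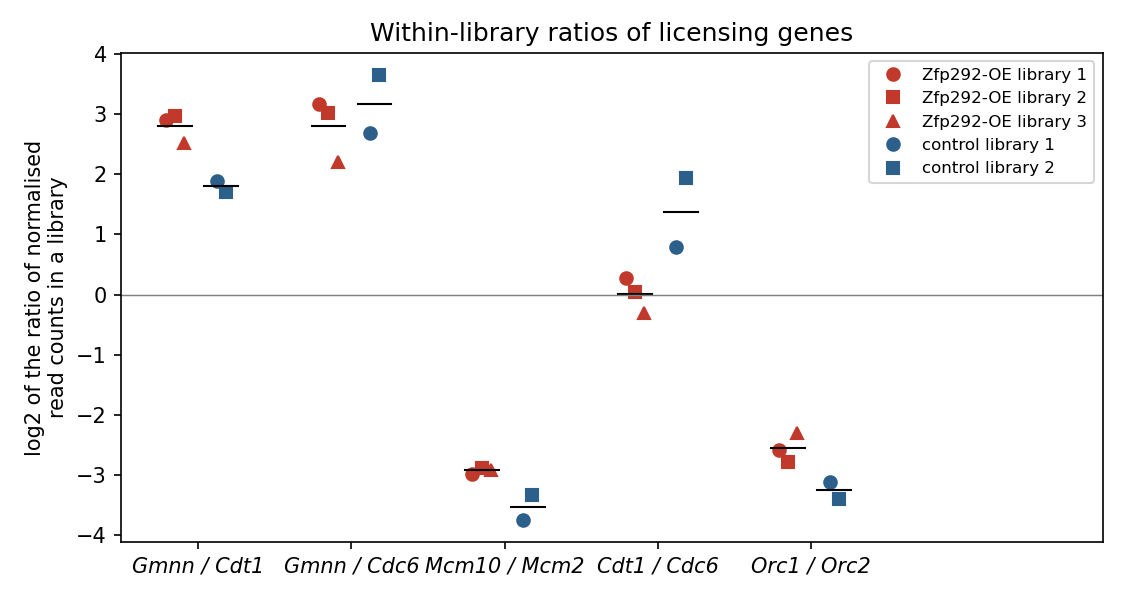
Log2 of 5 within-library ratios of normalised read counts, with libraries labelled Zfp292-OE (red) left of controls (blue) and black bars at group means. Gmnn to Cdt1, Mcm10 to Mcm2 and Orc1 to Orc2 are higher and Cdt1 to Cdc6 lower in every library labelled Zfp292-OE, while Gmnn to Cdc6 overlaps.

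The libraries labelled Zfp292-OE also differed among themselves. Library 2 was the highest of the 3 for 9 of the 10 genes, the exception being Cdt1, and library 3 was the lowest for 7 of 10. The median of the 10 genes relative to the control mean was 1.98, 2.36 and 1.77 on the log2 scale in libraries 1, 2 and 3. The mitosis genes gave 2.81, 3.16 and 2.03 and the replication fork genes 1.52, 1.76 and 0.97, so library 3 was the lowest of the 3 for each. For the 10 genes the control libraries stood at −0.04 and 0.04, with control library 1 the higher for 4 genes and control library 2 for 6.

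Of the 6 subunits of the origin recognition complex, which marks origins for loading, 4 were called higher, 0 lower and 2 did not pass, with a median log2 fold change of 0.73. These counts, and those of the lists below, are to be read beside the shares of all tested genes called higher and lower, given above. Orc6 rose most firmly, with 27131, 26468 and 17709 in the libraries labelled Zfp292-OE, against 11515 and 9224 in controls (log2 fold change 1.18, limma adjusted p = 0.0048). Orc1, the subunit that in mammals varies most over the cell cycle, had 851, 816 and 1003, against 462 and 327 in controls (1.19, limma adjusted p = 0.037). Orc4 (0.80, limma adjusted p = 0.042) and Orc3 (0.66, 0.045) passed narrowly, while Orc2 had a value of 0.48 (0.080) and Orc5 of 0.36 (0.32). The calls of Orc1, Orc3 and Orc4 held in 7, 4 and 6 of 15 alternatives, and in neither fit without a control, where without control library 2 the adjusted p was 0.21, 0.26 and 0.36. The log2 fold change of Orc3 was 0.32 without control library 2 and 0.997 without control library 1, and that of Orc4 was 0.38 without control library 2 and 1.22 without control library 1, so both depend on which control is kept. Control library 2 was the lower control for all 6 subunits, at a median of −0.29, against 0.29 in control library 1. Orc1 to Orc2 stood at −2.58, −2.78 and −2.30 in the libraries labelled Zfp292-OE, against −3.11 and −3.40 in controls.

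Of 16 genes of helicase activation and origin firing, 15 were called higher, 0 lower and 1 did not pass, with a median of 1.43. Cdc45, which completes the active helicase, had 12815, 13832 and 7236 in the libraries labelled Zfp292-OE, against 2134 and 1672 in controls (log2 fold change 2.52, limma adjusted p = 0.00055). The GINS subunit Gins1 rose by 2.17 (limma adjusted p = 0.00040). Dbf4, the activator of the kinase Cdc7, rose by 1.99 (limma adjusted p = 0.00049). The exception was Recql4, a helicase needed for firing, at 73.0, 89.3 and 117, against 17.4 and 91.6 in controls (1.16, limma adjusted p = 0.40). It was named after its value was seen.

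**Figure D4:**
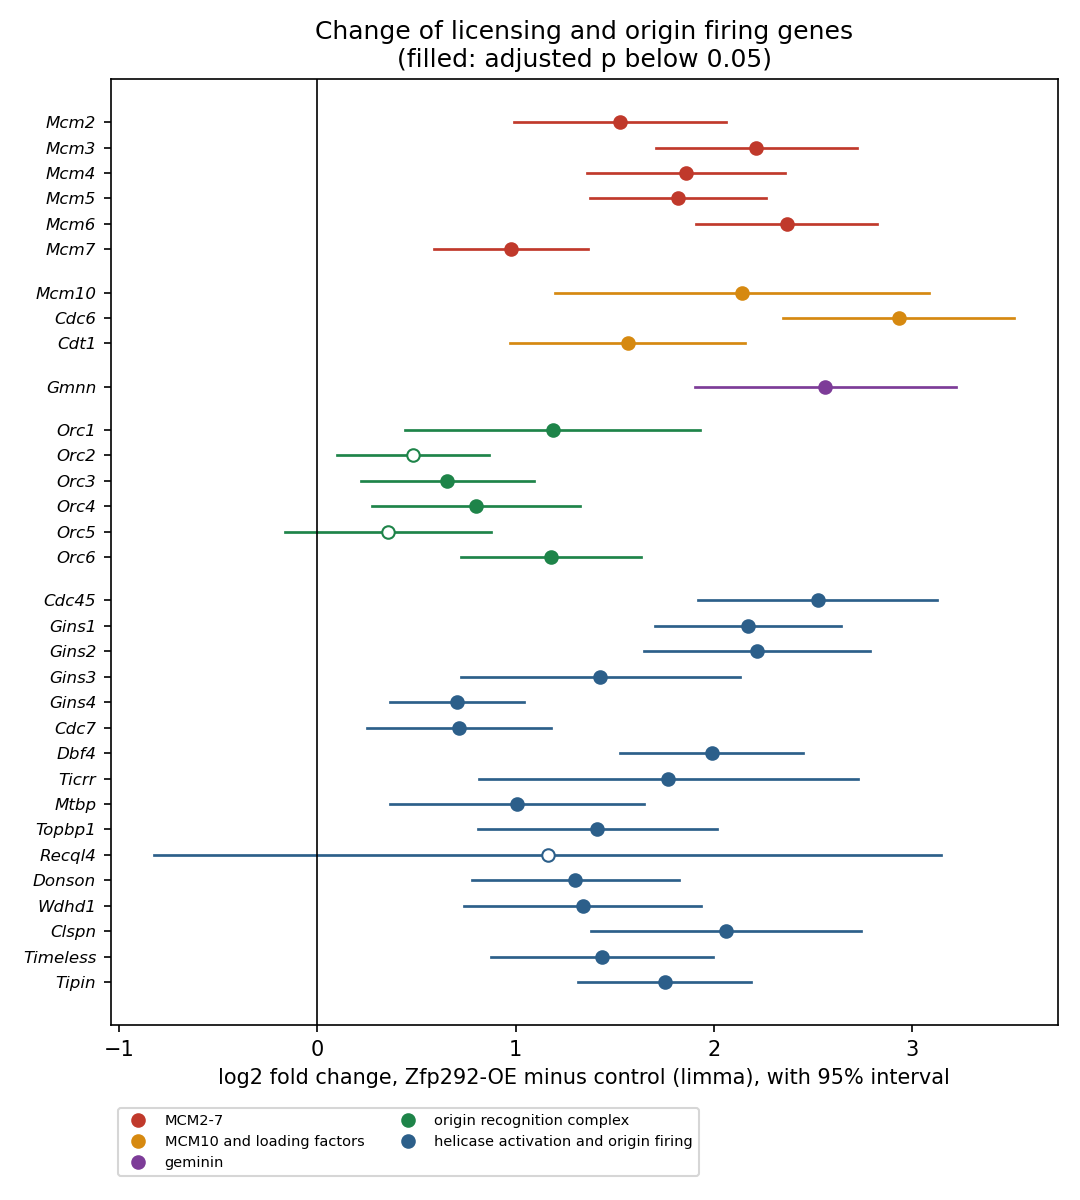
Log2 fold change (Zfp292-OE minus control, limma) with 95% interval for the 10 licensing genes, the 6 subunits of the origin recognition complex and 16 genes of activation and firing. The intervals of all 10 licensing genes lie above 0, Cdc6 at 2.93 and Mcm7 at 0.98 being the extremes, and Orc2, Orc5 and Recql4 are drawn as open points because they did not pass.

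Of 13 genes that turn over or regulate licensing proteins, 4 were called higher, 1 lower and 8 did not pass, with a median of 0.31. Those that rose were Fbxo5 (2.74, limma adjusted p = 0.00059), which inhibits the ubiquitin ligase that degrades geminin, Cdc20 (2.11, 0.0010), a mitotic activator of that ligase, Dtl (1.99, 0.00083), which targets Cdt1 for destruction on chromatin, and Skp2 (1.57, 0.0013), another ligase subunit that acts on Cdt1. Ddb1, the adaptor that works with Dtl, fell, with 13848, 16145 and 16650 in the libraries labelled Zfp292-OE, against 20535 and 23639 in controls (log2 fold change −0.51, limma adjusted p = 0.042). The call of Ddb1 held in 8 of 15 alternatives. Among all tested genes 7.38% were called lower, so 1 lower call in 13 genes does not stand out. Skp2, Ddb1, and Cul4a, Cul4b and Mcmbp, which did not pass, were named after their values were seen. The scaffolds Cul4a and Cul4b had values of −0.27 (limma adjusted p = 0.34) and 0.25 (0.38), and the MCM-binding protein Mcmbp of 0.31 (0.24).

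Of 5 relatives of the MCM proteins and geminin, 3 could be tested and 1 of them rose. Mcm8, a helicase of recombination, had 2532, 3000 and 1805 in the libraries labelled Zfp292-OE, against 834 and 975 in controls, and rose by 1.41 (limma adjusted p = 0.0079). Its partner Mcm9 had a value of 0.26 (limma adjusted p = 0.49) and Mcmdc2, a meiotic relative, of 0.05 (0.97). The geminin relatives Gmnc and Mcidas, regulators of multiciliated cells, were too low to be tested, with at most 10.9 in any library.

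Among the lists most like these genes, 17 of 20 replication fork genes and 17 of 17 mitosis genes were called higher, with medians of 1.41 and 2.71. Prim1, a subunit of primase, rose by 2.20, the polymerase subunit Pole2 by 2.53 and the sliding clamp Pcna by 1.78. Of the mitosis genes, the spindle factor Tpx2 rose by 2.78, cyclin Ccnb2 by 2.96 and the kinase Aurkb by 3.12. The fork genes that did not pass were Pola2, Pold1 and Rpa1, named after their values were seen. Differences between these lists and the licensing genes were not tested, since the lists were chosen with results known.

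**Figure D5:**
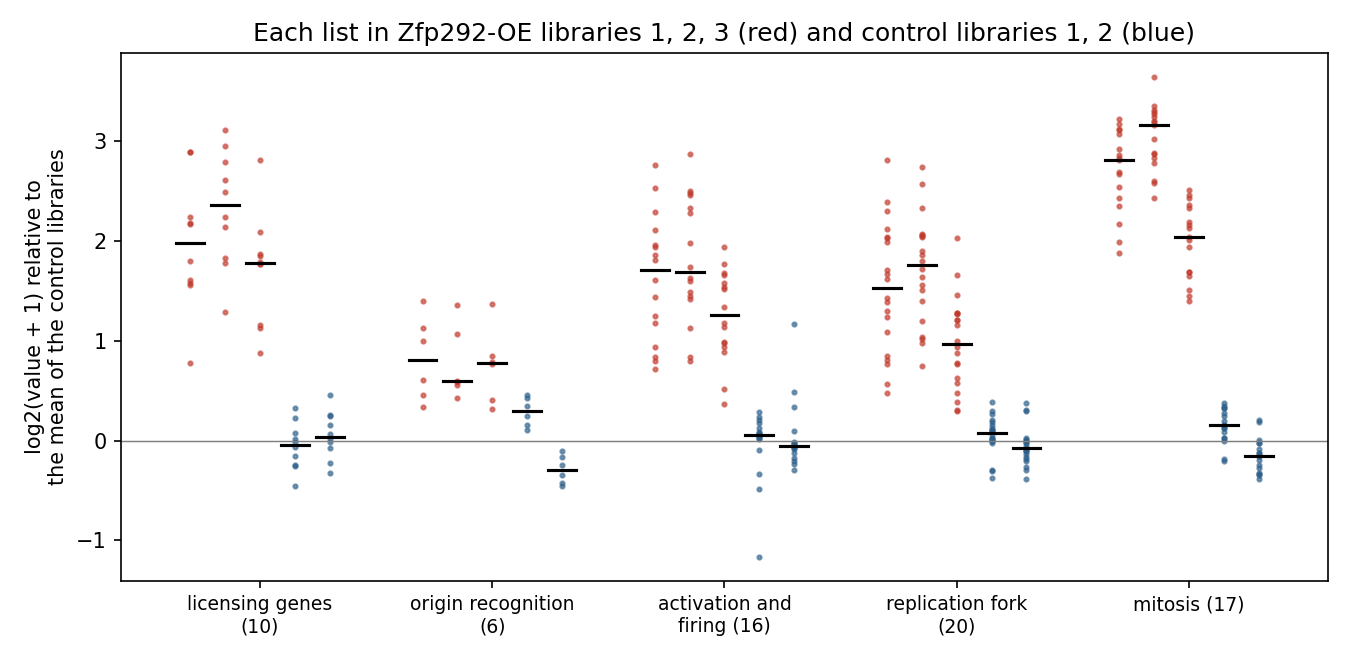
Log2(value + 1) of each gene relative to the control mean, for 5 gene lists, with libraries 1, 2 and 3 labelled Zfp292-OE (red) left of control libraries 1 and 2 (blue) and black bars at list medians. The licensing genes have medians of 1.98, 2.36 and 1.77 and the mitosis genes 2.81, 3.16 and 2.03 in the libraries labelled Zfp292-OE, with library 3 the lowest.

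The profiles most like the mean of the 10 genes, by Euclidean distance of log2(value + 1), relative to the control mean, over the 5 libraries among 16306 other tested genes, were those of Dbf4, Chaf1b, Cdk2, Ncaph and Brip1, at distances of 0.069, 0.152, 0.179, 0.244 and 0.26. Dbf4 has been given above. Cdk2, a kinase of S phase, had 4900, 5586 and 4107 in the libraries labelled Zfp292-OE, against 1250 and 1260 in controls. Brip1, a helicase of DNA repair, had 1942, 2631 and 1395, against 425 and 502 in controls.

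Markers of some cell types also differed between the groups, and more of them were called lower than higher. All 14 rod genes were called lower, with a summed normalised read count of 317221 to 359395 in the libraries labelled Zfp292-OE and 941001 to 1130340 in controls. Of 10 bipolar cell genes 9 were called lower, their sums being 150878 to 237969 in the libraries labelled Zfp292-OE and 209011 to 238161 in controls. Of 11 progenitor genes 3 were called higher and 1 lower, with sums of 335039 to 373658 in the libraries labelled Zfp292-OE and 245513 to 275539 in controls. Of 8 Müller glia genes 1 was called higher and 4 lower (272966 to 357149 in the libraries labelled Zfp292-OE and 575808 to 721328 in controls). Of other dividing cells a retina can hold, 0 of 9 microglial genes passed, with sums of 380 to 4813 in the libraries labelled Zfp292-OE and 3090 to 10844 in controls. Of 6 tested endothelial genes 1 was called higher (35322 to 44680 in the libraries labelled Zfp292-OE and 41139 to 49866 in controls). Pericyte genes summed to 186 to 388 in the libraries labelled Zfp292-OE and 1127 to 2543 in controls, with 3 of 5 called lower. Astrocyte genes summed to 9032 to 10325 in the libraries labelled Zfp292-OE and 16329 to 22491 in controls, with 3 of 5 called lower. No amacrine, ganglion, pigment epithelium or erythroid gene was called higher, and 2 of 7 amacrine genes were lower. No listed marker in the table was at 0 in all 5 libraries. The part of cell type composition in the licensing genes was not tested. Reads assigned to genes numbered 103096224 to 137683716 per library, and no pair of libraries agreed within counting noise.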

How the data were processed

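Messenger RNA was measured in 5 libraries. Per the labels' protocols, RNA was purified with a column kit and 1.3 µg of total RNA went into SMARTER libraries. The genome builds GRCm38 and mm10 are named, per the submitters' processing notes. The aligner, counter, annotation, strand setting and scaling method were not given in the sources used here. The authors' deposited signal is 1 normalised value per gene and library, called a normalised read count here. Each value was a whole multiple of 1 step per library (0.770 to 1.14) for 100% of values, within 1e-06 of a read, and whole reads were recovered from these steps. Total reads were 103096224 to 137683716 per library. Intervals cover the spread between libraries, and nothing says that these came from separate animals, so that spread may be technical.

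Genes with a mean of at least 10 were tested with limma 3.58.1 (trend) in R 4.3.3 on log2(value + 1). Differences are Zfp292-OE minus control, and p-values were adjusted over all tested genes (Benjamini-Hochberg, threshold 0.05). A fold change is a difference of mean logs on that scale, which understates the change of low genes. Fits that left out a library applied the same filter to the rest. Since the deposited unit is not counts, the main test was limma. edgeR 4.0.16 (quasi-likelihood) called 1351 genes higher and 1270 lower and DESeq2 1.42.0 called 2329 and 1838 on the whole reads, as alternatives. The 10 genes and all lists were chosen with earlier results of these data known. Named genes were all 10 members, the 6 origin recognition subunits, the 3 genes of each list with the smallest p, the 5 most similar profiles, genes starting within 1 kb on the other strand, and Zfp292, with other genes named as exceptions to a count, as said beside them, or for overlapping Mcm7. Gene spans, exons and transcript lengths are from GENCODE M21 (GRCm38) and upstream sequences from RefSeq (GRCm38.p6). Copies were sought by aligning each principal transcript to all GENCODE transcripts, at 95% identity over at least 300 bases. The alternatives tried were other pseudocounts (0.5, 10), other filters (none, mean 50), other scalings (TMM, equal totals, quantile), both count models, a fit with replicate number as block, and fits without each library in turn. In fits without a control, the lone control is assumed to vary like the other group. Plots used matplotlib 3.10.9.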

Additional observations from a re-analysis of the deposited data

How the results depend on the processing

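All 10 licensing genes were called higher under each of the 10 alternatives that kept all libraries. Of these alternatives, the replicate block in effect dropped library 3 labelled Zfp292-OE, as said below. The 10 genes were also called higher without each library labelled Zfp292-OE, and their direction was the same under all 15 alternatives run. Leaving out a library gave 0 to 10 calls among them, the 0 being without either control. Over the same fits the calls ranged from 1 to 2352 for all genes (2836 with all libraries, 1657 without library 1 labelled Zfp292-OE), 0 to 2 for the origin recognition complex, 0 to 14 for activation and firing, 0 to 4 for turnover and regulators, 0 to 1 for the relatives, 0 to 18 for the replication fork and 0 to 17 for mitosis, each 0 being without a control. The origin recognition complex had 1 call with no filter or equal totals, and 2 with TMM scaling, quantile normalization, edgeR or the replicate block, and 5 with DESeq2, which added Orc2 (adjusted p = 0.027), against 4 in the main test. Under equal totals the median over all genes was −0.27, against −0.06, and the 10 genes then lay between 0.76 and 2.72, with 912 genes higher and 1985 lower, against 1632 and 1204 with the values as deposited. Among the genes and ratios named by rule, values that changed sign were those of Zfp292 (−0.17 with equal totals, −0.21 with quantile normalization, −0.011 with the replicate block or without library 3 labelled Zfp292-OE, and −0.033 to 0.12 over the fits without 1 library), Mcmdc2 (−0.17 with equal totals, −0.24 with the replicate block or without library 3 labelled Zfp292-OE, −0.33 to 0.42 over the fits without 1 library), Orc5 (−0.10 without control library 2, 0.82 without control library 1), Ap4m1 (0.047 with quantile normalization) and the ratio of Gmnn to Cdc6 (0.10 without control library 2, range −0.85 to 0.10). None of these passed a test, and the cause was not tested. The labels give replicate numbers and do not say whether same-numbered libraries share a batch. Deviations of same-numbered libraries from their group means correlated at −0.04 and −0.03. The deviations of the 2 controls mirror each other by construction, so these values cannot decide it. The replicate block left 10 of the 10 licensing genes called among 2498 genes. Library 3 labelled Zfp292-OE was alone in its block and added nothing to the difference. The fold changes of the 10 genes were thus those of the fit without that library (median log2 fold change 2.11 in both). With 2 controls, the p-values rest on few libraries.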
